A study of Mus musculus with 9 samples.

Results

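The genes described here carry fatty acids into mitochondria and peroxisomes, break them down there and regulate that pathway, among them PPAR-alpha, its coactivator and known PPAR-alpha targets. They were chosen by gene symbol from a list of 40, and all 40 were found among the 55385 genes of the deposited table. All 40 passed the filter on low values, a mean of at least 0.5 FPKM over the 9 libraries, which left 15508 genes to be tested.

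Fatty acids are activated to acyl-CoA, passed to carnitine, carried through the inner mitochondrial membrane and shortened in repeated turns of beta-oxidation, each of which feeds electrons to the respiratory chain. Peroxisomes shorten very long and branched chains, and enzymes of the CYP4 family oxidise the far end of the chain. The nuclear receptor PPAR-alpha switches on genes of all these steps, and the proximal tubule of the kidney, which is rich in mitochondria and peroxisomes, draws much of its energy from fatty acids.

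The study sequenced poly(A) RNA from kidneys of male C57BL/6 mice (C57BL/6J in the study's methods), with 1 library per mouse and 3 mice in each of 3 groups, out of 8 mice in each group of the study. All mice were 8 to 10 weeks old at the start. Control mice (numbers 2, 4 and 5) were untreated. HN mice (numbers 4, 8 and 12) had hyperuricemic nephropathy, a kidney disease with high uric acid, brought on over 4 weeks by feeding, on alternate days, adenine at 0.16 g/kg together with potassium oxonate at 2.4 g/kg. PEC mice (numbers 1, 2 and 3) had the same induction and also received the plant flavonoid pectolinarigenin, by mouth each day, at 25 mg/kg. The sample labels give no dose, which was taken from the study's text on the sequencing, and the study also had a group at 50 mg/kg. HN and PEC mice therefore share both inducing agents, and adenine given in this way injures tubules beside raising uric acid. The Control libraries carry a title that names HN mice, while their disease state is given as control, and they were used as Control. Total counts were 57714111 to 81069646 per library, so that even the least covered member, Ppara, had at least 402 counts in each mouse.

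The PEC libraries stood apart from the others. In the principal components of all tested genes, the first, with 44.8% of the variance, separated Control from both induced groups, and the second, with 30.9%, ran from −65.5 to −58.2 in HN, from −6.72 to 1.30 in Control and from 63.1 to 68.2 in PEC. AY036118, a transcript that lies within the ribosomal RNA repeat, took 0.179%, 1.04% and 0.183% of counts in PEC 1, 2 and 3, and at most 0.00158% in any other library. Mitochondrially encoded genes took 14.2% ± 1.82 in Control (SD, n = 3), 6.19% ± 0.164 in HN and 12.3% ± 1.78 in PEC. Whether the PEC libraries were prepared or sequenced apart from the others was not stated. Their part in the differences between PEC and the other groups was not tested.

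The question asked of HN against Control is what the disease changed, of PEC against HN what treatment changed in diseased mice, and of PEC against Control how far treated mice were from untreated ones. The comparisons share libraries, so their values are set side by side and not counted as independent of each other. Tests were run with edgeR on the deposited counts, with TMM scaling. Calls needed both a 1.5-fold difference, 0.585 on the log2 scale, and an adjusted p no higher than 0.05 (Benjamini-Hochberg, over all genes tested). Values of single mice are FPKM divided by the TMM factor of the library (normalised FPKM), always in the order of the mouse numbers above. TMM factors were 0.786 to 0.848 in Control, 1.15 to 1.21 in HN and 1.00 to 1.02 in PEC. Scaling by total counts alone moved the median log2 fold change of all genes to 0.51 in HN against Control, to −0.23 in PEC against HN and to 0.31 in PEC against Control, from −0.01, −0.01 and 0.01 under TMM. Of all called genes, 84.3%, 29.6% and 74.2% were then higher in the first group named, against 52.0%, 48.4% and 51.7% under TMM.

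Fatty acid oxidation genes were low throughout the pathway in HN kidneys. Of the 40 members, 38 fell in HN against Control, where 17.2% of all genes tested were called lower. The median log2 fold change of the members was −1.56, beside −0.01 over all genes tested. Members called higher numbered 0 with edgeR, where 18.7% of all genes tested were called higher, 0 at an unadjusted p of at most 0.05, and 0 with DESeq2 and with limma. The 2 members not called were Acadsb, at −0.60 (adjusted p = 0.438), and Pdk4, at −1.25 (adjusted p = 0.154). In 39 of the 40 members each HN mouse was below each Control mouse. Only in Pdk4 did the groups overlap. On deposited FPKM, without the TMM factor, it was 34 of 40, with 6 overlapping. How many of all genes tested separate in this way was not counted, so these counts have no background beside them. With total counts as the scale 29 of 40 were called lower, beside 7.41% of all genes, with a median of −1.05, which was −1.56 relative to the median of all genes under that scale. The calls of Ppargc1a, Cpt1a, Slc25a20, Hadha, Hadhb, Echs1, Eci1, Acaa1a and Hacl1 were then lost, with values from −0.60 for Eci1 (adjusted p = 0.0677) to −0.18 for Acaa1a.

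Part of the pathway was higher in PEC than in HN kidneys. Of the 40 members, 17 rose in PEC against HN, where 16.6% of all genes tested were called higher, and 1, Ppara, fell, where 17.7% were called lower. The median of the members was 0.59, beside −0.01 over all genes. In 26 members each PEC mouse was above each HN mouse, in 2 (Ppara and Ppargc1a) each was below, and in 12 the groups overlapped. On deposited FPKM these were 19, 3 (Acot1 as well) and 18. Here too the share of all genes tested that separate in this way was not counted. The count rests in part on single libraries: 10 members were called higher without PEC 2, the library with the most AY036118, and 21 without Control 2, which enters through the shared estimate of the spread. Of all 15508 genes, 2502 and 2562 were then called higher. Calls of Acaa1b, Acsm2, Acsm3, Crat, Hadh, Decr1 and Acat1 were lost without at least 1 library. With total counts as the scale 9 members were called higher, beside 11% of all genes (not Acsm2, Acsm3, Crat, Acadvl, Hadh, Decr1, Acat1 and Acaa1b), with a median of 0.37, which was 0.60 relative to all genes, and Hacl1, Etfdh, Acads, Etfa, Acaa1a and Hadhb, not called under either scale, turned from above to below 0.

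Treated kidneys were still below Control for most of the pathway. Of the 40 members, 31 were called lower in PEC against Control, where 20.0% of all genes tested were. The median was −1.005, beside 0.01 over all genes. Members called higher numbered 0 with edgeR, where 21.4% of all genes were called higher, 0 at an unadjusted p of at most 0.05, and 0 with DESeq2 and with limma. In 33 members each PEC mouse was below each Control mouse, and in 7 the groups overlapped. On deposited FPKM 26 were below, 1 (Etfb) was above and 13 overlapped. Again no such count was made over all genes tested. With total counts as the scale 21 were called lower, beside 11.3% of all genes (not Acsm1, Cpt1a, Crat, Acadl, Acadvl, Echs1, Eci2, Hacl1, Pex11a and Cyp4a10), with a median of −0.70, which was −1.01 relative to all genes. Slc25a20, not called, turned from −0.17 to 0.13 under that scale.

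**Figure D1:**
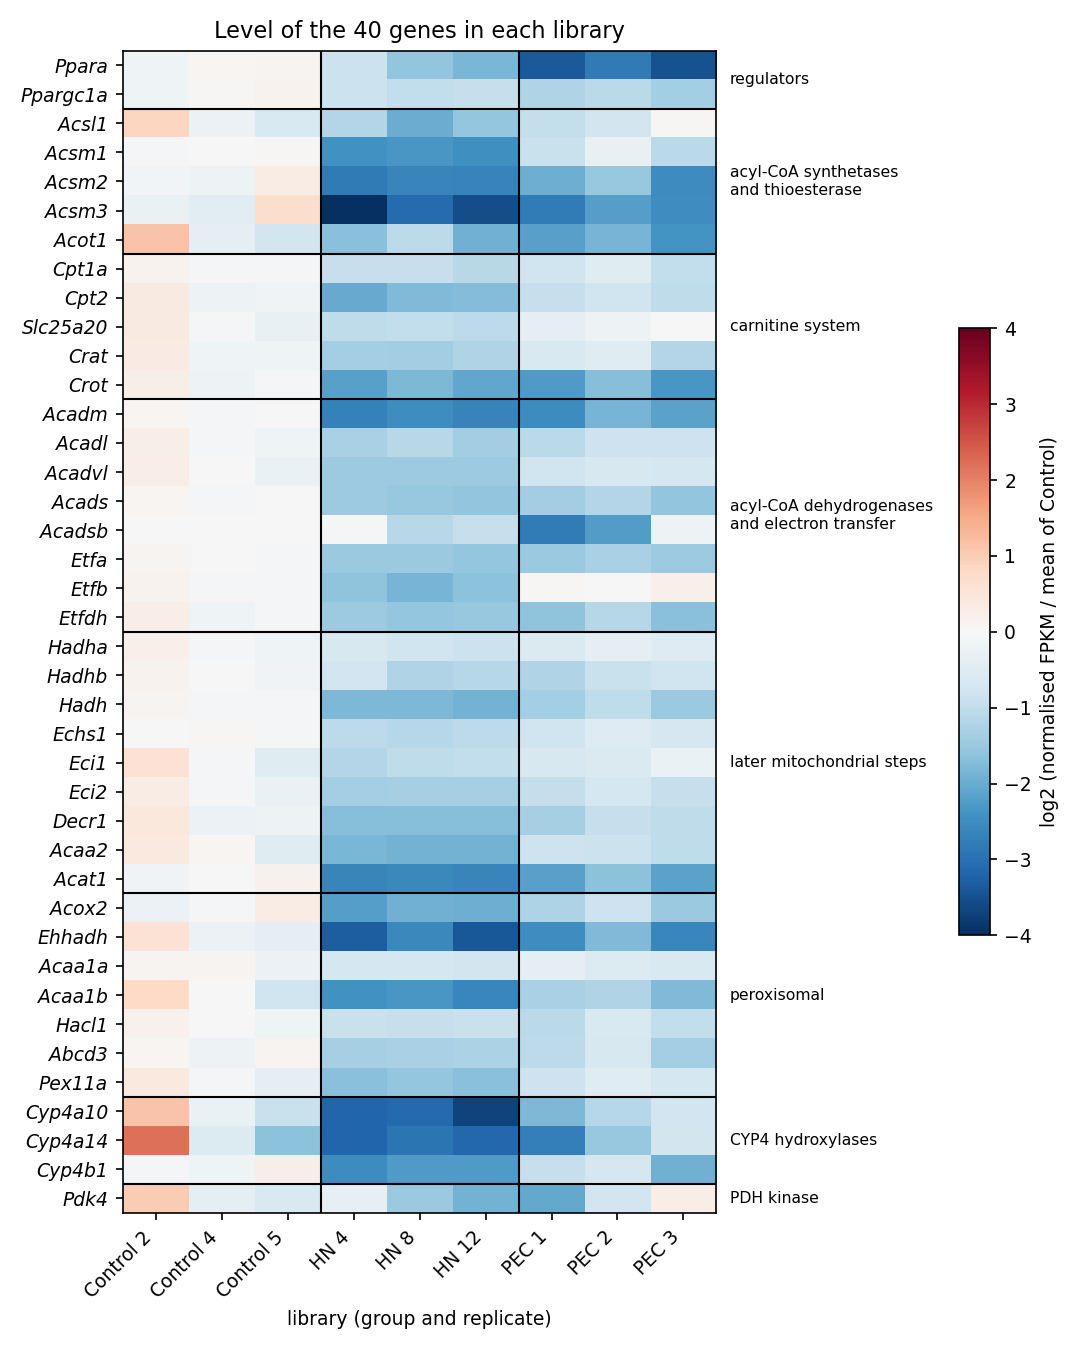
Heat map of the 40 members (rows, ordered by role) in the 9 libraries (columns), coloured by log2 of normalised FPKM relative to the mean of the Control mice. The median over members was −1.48, −1.55 and −1.66 in HN 4, 8 and 12, and −1.21, −0.84 and −1.02 in PEC 1, 2 and 3.

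Mice of a group differed in the summed level of the members. Summed over the 40 members, normalised FPKM was 6978, 5081 and 5514 in Control mice, 1246, 1343 and 1240 in HN mice and 2197, 2705 and 2061 in PEC. Abundant genes weigh most in this sum, with 18.8% from Cyp4b1 alone. Cyp4a10 and Cyp4a14 read 622 and 579 in Control 2, 231 and 85.6 in Control 4, and 152 and 40.4 in Control 5. The median over members, on the scale of the heat map, was 0.199, −0.065 and −0.150 in Control 2, 4 and 5. Control 2 stood above its group and had the highest value of the Control mice in 30 of 40 members. PEC 2 had the highest value of the PEC mice in 29 of 40. The HN mice lay close together, and every PEC mouse lay between the HN and the Control mice in the sum.

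The regulators went down in both induced groups under TMM. Ppara encodes PPAR-alpha itself (ENSMUSG00000022383, chr15:85734983-85802819, GRCm38). It read 15.7, 18.4 and 18.7 normalised FPKM in Control, 9.66, 5.89 and 4.93 in HN mice and 1.70, 2.46 and 1.57 in PEC. The groups formed 3 steps with no overlap, and the PEC mice were the lowest. Ppara fell in HN against Control by log2 −1.34 (SE 0.26, adjusted p = 0.00221) and in PEC against HN by −1.82 (SE 0.26, adjusted p = 6.2e-04), and PEC against Control was −3.16 (SE 0.27, adjusted p = 3.3e-05). It was thus the 1 member that fell in treated against diseased kidneys while 17 others rose. Ppargc1a encodes the coactivator PGC-1alpha, which drives mitochondrial genes together with PPAR-alpha. Its values were 11.7, 13.7 and 14.5 in Control mice, 7.35, 6.66 and 6.98 in HN mice and 5.75, 6.32 and 5.13 in PEC, again with no overlap between groups. It fell in HN against Control, −0.91 (SE 0.10, adjusted p = 1.2e-04), and PEC against Control was −1.18 (SE 0.10, adjusted p = 3.6e-05). Scaled by total counts, HN against Control was −0.385 and not called. PEC against HN was −0.27 (SE 0.10, adjusted p = 0.0548) and not called, and it turned to 0.42 once the trend with transcript length and GC content was removed.

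**Figure D2:**
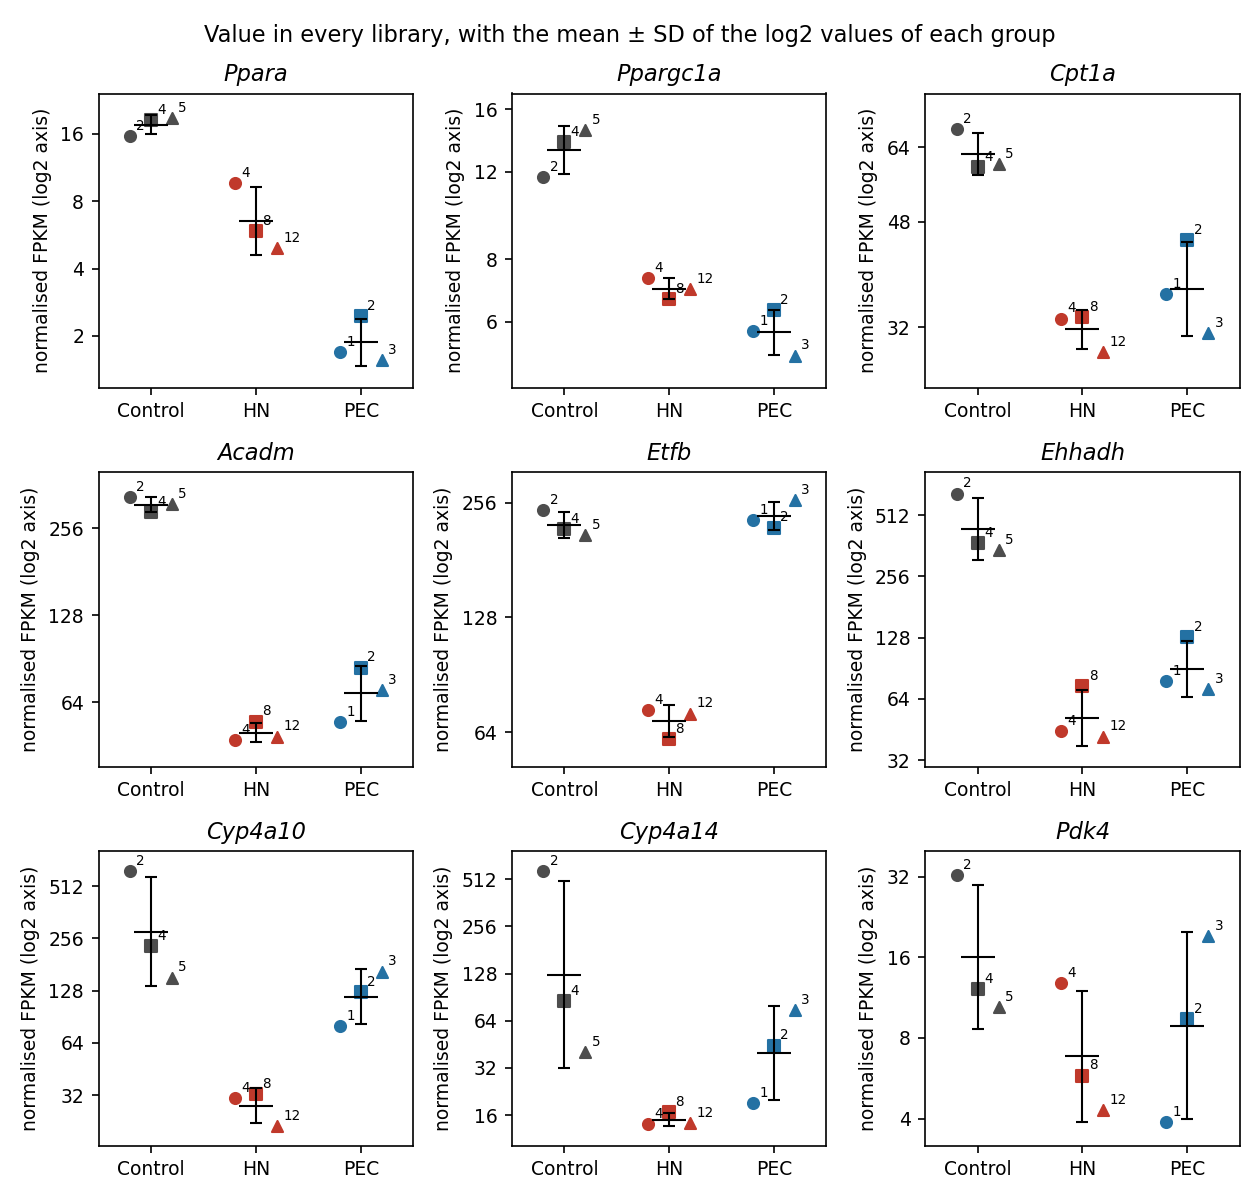
Normalised FPKM of 9 members in each mouse (points, numbered by mouse), on log2 axes that differ between panels, with the mean and SD of the log2 values of each group of 3 mice. Ppara is lowest in PEC mice, at 1.57 to 2.46, while Etfb in PEC overlaps Control, at 220 to 260 against 210 to 244.

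Members that activate fatty acids, or in Acot1 reverse this, all fell in HN. All 5 were called lower in HN against Control, beside 17.2% of all genes tested. In PEC against HN 3 rose, beside 16.6%, and in PEC against Control 4 were lower, beside 20.0%. With total counts as the scale these were 5, 1 and 3 members, beside 7.41%, 11% and 11.3%. Acsm2, a medium-chain acyl-CoA synthetase and the most abundant of them, read 637, 602 and 842 in Control mice, 97.2, 111 and 107 in HN mice and 178, 238 and 119 in PEC. All PEC mice lay above all HN mice and far below Control. Its log2 fold change was −2.70 (SE 0.25, adjusted p = 3.6e-05) in HN against Control and 0.78 (SE 0.23, adjusted p = 0.0226) in PEC against HN. The second call was lost when any 1 of HN 4, HN 8, HN 12, PEC 1 or PEC 2 was left out, with 0.53 without PEC 2 (adjusted p = 0.0668) as the lowest value and 0.82 without HN 8 (adjusted p = 0.0521) as the highest.

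Acsm3, another medium-chain synthetase, had 159, 145 and 312 in Control mice, 10.8, 23.1 and 16.7 in HN mice and 27.6, 41.9 and 34.4 in PEC. Control 5 was highest of all mice, and no groups overlapped. The fall in HN was −3.58 (SE 0.38, adjusted p = 8.3e-05). The rise in PEC against HN, 1.05 (SE 0.35, adjusted p = 0.0337), was lost without HN 4, HN 12, PEC 2 or PEC 3, with 0.81 without HN 4 (adjusted p = 0.101) as the lowest. Acsm1, of the same family, showed 54.8, 59.5 and 60.7 in Control mice, 10.9, 11.5 and 10.7 in HN mice and 31.6, 47.9 and 27.9 in PEC. PEC 2 came closest to the Control mice. It fell in HN by −2.38 (SE 0.18, adjusted p = 1.3e-05) and rose in PEC against HN by 1.71 (SE 0.17, adjusted p = 1.2e-04). PEC against Control was −0.67 (adjusted p = 0.00910), and −0.50 without PEC 3 (adjusted p = 0.0242), under the fold asked.

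Acsl1 activates long-chain fatty acids. It fell in HN against Control by −1.64 (SE 0.42, adjusted p = 0.0101), and by −1.09 without Control 2 (adjusted p = 0.0279). In PEC against HN it was 1.06 (adjusted p = 0.0584), not called, and was called with the same fold without Control 2 (adjusted p = 0.0206) or Control 5 (adjusted p = 0.0428). Acot1, a thioesterase that frees fatty acids from CoA, fell in HN by −1.73 (SE 0.47, adjusted p = 0.0141). Control 2 held 52.2 normalised FPKM against 18.3 and 14.2 in the other Control mice. The fall was −0.93 without Control 2 (adjusted p = 0.0229), and the call was lost without HN 4 (adjusted p = 0.0506) or HN 12 (adjusted p = 0.0526). PEC against Control was −2.33 (adjusted p = 0.00311), and −1.53 without Control 2 (adjusted p = 0.00227).

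The carnitine system fell at all 5 genes in HN under TMM, beside 17.2% of all genes tested. In PEC against HN 3 rose, beside 16.6%, and in PEC against Control 4 were lower, beside 20.0%. Scaled by total counts these were 3, 2 and 2, beside 7.41%, 11% and 11.3%. The falls of Cpt1a, at −0.435, and Slc25a20, at −0.51, were then no longer called. Cpt1a makes acylcarnitine at the outer mitochondrial membrane, the controlled entry step of beta-oxidation. It read 68.5, 59.3 and 59.9 in Control mice, 33.1, 33.3 and 29.1 in HN mice and 36.3, 44.8 and 31.3 in PEC. PEC 2 was above every HN mouse and PEC 3 lay among them. Cpt1a fell in HN by −0.95 (SE 0.13, adjusted p = 3.2e-04), one of the smaller falls of the pathway. PEC against HN was 0.25 (SE 0.13, adjusted p = 0.131), not called, and PEC against Control was −0.70 (adjusted p = 0.00165), or −0.57 without PEC 3 (adjusted p = 0.00443), under the fold asked.

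Crot, the peroxisomal carnitine octanoyltransferase and the most abundant gene of this step, had 143, 104 and 117 in Control mice, 26.5, 34.7 and 28.7 in HN mice and 25, 36.8 and 24.2 in PEC. HN and PEC mice overlapped and both lay well below Control. Crot fell in HN by −1.99 (SE 0.19, adjusted p = 4.6e-05), and PEC against HN was −0.05 (SE 0.18, adjusted p = 0.840), not called. Cpt2, which turns acylcarnitine back to acyl-CoA inside the mitochondrion, fell by −1.83 (adjusted p = 2.3e-05) and rose in PEC against HN by 0.94 (adjusted p = 0.00116). Slc25a20, the carrier that exchanges acylcarnitine for carnitine, fell by −1.02 (adjusted p = 8.1e-04), rose by 0.86 (adjusted p = 0.00269) and was not called in PEC against Control. Crat, which moves acetyl groups to carnitine, fell by −1.32 (adjusted p = 6.3e-04). Its rise in PEC against HN, 0.62 (adjusted p = 0.0285), was lost without HN 4, HN 8, PEC 1 or PEC 2, with 0.49 without PEC 2 (adjusted p = 0.0898) as the lowest. Its lower value in PEC against Control, −0.70 (adjusted p = 0.0152), was −0.51 without Control 2 (adjusted p = 0.0525) and −0.50 without PEC 3 (adjusted p = 0.0356), not called in either.

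Acyl-CoA dehydrogenases take the first step of each turn and pass electrons to the flavoprotein ETF. Of these 8 genes, 7 fell in HN against Control, beside 17.2% of all genes tested. In PEC against HN 2 rose (25%), beside 16.6%, and in PEC against Control 6 were lower, beside 20.0%. With total counts as the scale these were 7, 1 and 4, beside 7.41%, 11% and 11.3%. The 1 higher in PEC against HN on that scale is 12.5% of the 8, near the share of all genes. Acadm, the medium-chain dehydrogenase, read 329, 291 and 310 in Control mice, 47.5, 54.9 and 48.8 in HN mice and 54.8, 84.5 and 70.6 in PEC. Control mice were far above the rest, and PEC 1 lay just under HN 8. Acadm fell in HN by −2.60 (SE 0.15, adjusted p = 4.2e-06). PEC against HN was 0.49 (SE 0.14, adjusted p = 0.0204), under the fold asked, and was called without PEC 1, at 0.63 (adjusted p = 0.00379). Acadl and Acadvl, for long and very long chains, fell by −1.24 (adjusted p = 8.4e-05) and −1.44 (adjusted p = 2.6e-05). Acadvl rose in PEC against HN by 0.76 (adjusted p = 0.00126), and its PEC against Control value of −0.69 (adjusted p = 0.00153) was −0.53 without Control 2 (adjusted p = 0.00189), under the fold asked. Acads, for short chains, fell by −1.49 (adjusted p = 8.6e-06) and was not called in PEC against HN, at 0.16.

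Etfb encodes the beta subunit of ETF and in PEC kidneys was near Control under TMM. It had 244, 218 and 210 in Control mice, 73.2, 61.4 and 71.6 in HN mice and 230, 220 and 260 in PEC, means of 224 ± 17.7, 68.7 ± 6.40 and 237 ± 20.5 (SD, n = 3 mice). PEC and Control mice overlapped, and both lay far above HN. Etfb fell in HN by −1.68 (SE 0.11, adjusted p = 6.4e-06) and rose in PEC against HN by 1.80 (SE 0.11, adjusted p = 1.8e-05). PEC against Control was 0.12 (SE 0.10, adjusted p = 0.352), not called, and turned to −0.46 with the trend with length and GC content removed. Etfb is the shortest member, with a transcript of 893 bases. The partner subunit, Etfa, did not show this: it read 231, 214 and 204 in Control mice, 76.7, 76.5 and 73.1 in HN mice and 77.2, 88.6 and 78.6 in PEC. Etfa fell in HN by −1.50 (adjusted p = 2.9e-06), and PEC against HN was 0.13 (SE 0.08, adjusted p = 0.194), not called. The difference between both subunits was not tested. Etfdh, which hands the electrons on to ubiquinone, fell by −1.49 (adjusted p = 6.6e-05) and was not called in PEC against HN, at 0.05.

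Acadsb, which also degrades isoleucine, varied widely within the induced groups. It had 14.2, 13.9 and 14.0 in Control mice, 13.4, 6.55 and 7.37 in HN mice and 2.01, 2.98 and 12.1 in PEC. HN 4 and PEC 3 were near the Control mice, and PEC 1 and PEC 2 were the lowest of all. None of its comparisons was called, but without PEC 3 it was called lower in PEC against HN, at −1.83 (adjusted p = 0.00244), and in PEC against Control, at −2.44 (adjusted p = 5.4e-04).

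The later steps of the mitochondrial spiral fell at all 9 genes in HN under TMM. Of these, 4 rose in PEC against HN and 7 were lower in PEC against Control. Beside the 3 counts stand 17.2%, 16.6% and 20.0% of all genes tested. Scaled by total counts these were 5, 1 and 5, beside 7.41%, 11% and 11.3%. Hadha at −0.23, Hadhb at −0.50, Echs1 at −0.54 and Eci1 at −0.60 (adjusted p = 0.0677) were then no longer called in HN against Control. Only Acaa2 was then called higher in PEC against HN, or 11.1% of the 9 genes, near the share of all genes. Acat1, the thiolase that splits and forms acetoacetyl-CoA and the most abundant of them, read 260, 283 and 320 in Control mice, 46.5, 48.5 and 45.8 in HN mice and 63.6, 92.9 and 65.7 in PEC. The groups did not overlap, and PEC 2 was the highest of the treated mice. Acat1 fell by −2.59 (SE 0.15, adjusted p = 4.0e-06). Its rise in PEC against HN, 0.67 (SE 0.14, adjusted p = 0.00449), was 0.49 without PEC 2 (adjusted p = 0.00496), under the fold asked. Acaa2, the thiolase that ends each turn, fell by −1.89 (adjusted p = 5.9e-05) and rose by 0.99 (adjusted p = 0.00257). Hadh, which oxidises short and medium hydroxyacyl-CoA, fell by −1.81 (adjusted p = 6.7e-06). It rose by 0.59 (adjusted p = 0.00305), a value at the threshold that was 0.56 without HN 12 (adjusted p = 0.0141) and 0.45 without PEC 2 (adjusted p = 0.00415). Decr1, needed for unsaturated chains, fell by −1.70 (adjusted p = 7.5e-05) and rose by 0.63 (adjusted p = 0.0156), or 0.56 without PEC 2 (adjusted p = 0.0473), under the fold asked.

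The other 5 genes of the spiral were lower by less. Hadha and Hadhb, the subunits of the trifunctional protein for long chains, fell in HN by −0.75 (adjusted p = 6.0e-04) and −1.01 (adjusted p = 5.1e-04). Echs1, the short-chain enoyl-CoA hydratase, fell by −1.06 (adjusted p = 1.3e-05). Its PEC against Control value was −0.61 (adjusted p = 2.4e-04), or −0.56 without PEC 1 (adjusted p = 0.00125), under the fold asked. The isomerases Eci1 and Eci2, for unsaturated chains, fell by −1.11 (adjusted p = 0.00455) and −1.34 (adjusted p = 6.3e-05). In PEC against HN these 5 ranged from 0.09 for Hadhb to 0.59 for Eci1 and none was called. Eci1 was called with the same fold without Control 2 (adjusted p = 0.0118) or Control 5 (adjusted p = 0.0257). In PEC against Control Eci1 was −0.52 (adjusted p = 0.0946), not called, and was called lower without Control 5, at −0.73 (adjusted p = 0.0158). Over all runs with 1 library left out, that value came as near to 0 as −0.18, and its adjusted p reached 0.383.

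Since these genes fell together and several are textbook targets of PPAR-alpha, their promoters were searched for its binding motif, the repeat of AGGTCA with 1 base between (DR1), on both strands and with at most 2 mismatches. RefSeq promoter windows on GRCm38.p6, from 250 bases before to 50 after the RefSeq start, were found for 34 of the 40 members, but not for Cyp4a10, Cyp4a14, Decr1, Acat1, Crat and Acaa2. A match stood in 4 of the 34 (11.8%), and in 4.40% of all 27025 genes with a window. The sequences of Echs1 and Etfa are shown because their matches lie before the gene. Echs1 (chr7:140116477-140116571, minus strand) has a match that begins 83 bases before the RefSeq start and 28 before the start in the deposited table, within an intron of Paox on the opposite strand. Etfa (chr9:55512244-55512393, minus strand) has a match on the opposite strand, 77 bases before the start in both. Both sequences are from RefSeq, GRCm38.p6, and capitals mark the match.

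Echs1: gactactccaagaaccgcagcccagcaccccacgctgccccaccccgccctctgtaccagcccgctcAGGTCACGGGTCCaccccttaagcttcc

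Etfa: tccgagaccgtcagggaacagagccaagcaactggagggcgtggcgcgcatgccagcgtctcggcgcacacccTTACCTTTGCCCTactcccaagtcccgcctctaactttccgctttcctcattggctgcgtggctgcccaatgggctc

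The other matches, in Slc25a20 and Acox2, begin 6 and 9 bases after the RefSeq start, within the gene. A match is a likeness of letters, and binding was not measured here.

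Peroxisomal genes fell at all 7 members in HN, beside 17.2% of all genes tested. In PEC against HN 3 rose, beside 16.6%, and in PEC against Control 6 were lower, beside 20.0%. With total counts as the scale these were 5, 2 and 4 members, beside 7.41%, 11% and 11.3%. Ehhadh, the bifunctional enzyme of peroxisomal beta-oxidation and the most abundant of them, had 654, 373 and 345 in Control mice, 44.4, 74.1 and 41.8 in HN mice and 78.0, 129 and 71.4 in PEC. Control 2 was the highest of all mice, and PEC 3 lay just under HN 8. Ehhadh fell in HN by −3.08 (SE 0.36, adjusted p = 1.4e-04). PEC against HN was 0.81 (SE 0.33, adjusted p = 0.0726), not called, and was called without Control 2 (adjusted p = 0.0452) or HN 8, at 1.12 (adjusted p = 0.0335). Over all runs with 1 library left out, the lowest value was 0.52 and the highest adjusted p was 0.236. Acaa1b, a peroxisomal thiolase, read 359, 203 and 119 in Control mice, 38.0, 41.1 and 33.4 in HN mice and 84.0, 88.7 and 59.8 in PEC. The groups did not overlap, though Control mice were spread widely. It fell by −2.58 (SE 0.36, adjusted p = 4.1e-04). Its rise in PEC against HN, 1.06 (SE 0.35, adjusted p = 0.0313), was lost when any 1 of HN 4, HN 8, HN 12, PEC 1 or PEC 2 was left out, with adjusted p from 0.0630 to 0.0901.

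Acox2, the oxidase for branched chains and bile acid precursors, fell by −2.01 (adjusted p = 3.6e-05) and rose in PEC against HN by 0.88 (adjusted p = 0.00385). Pex11a, which helps peroxisomes divide, fell by −1.64 (adjusted p = 8.8e-05) and rose by 0.98 (adjusted p = 0.00193). Its PEC against Control value of −0.66 (adjusted p = 0.0108) was −0.44 without Control 2 (adjusted p = 0.0247) and −0.58 without PEC 1 (adjusted p = 0.0388). Acaa1a, the second thiolase, Hacl1, which cleaves 2-hydroxy acids, and Abcd3, a transporter of the peroxisomal membrane, fell by −0.70 (adjusted p = 6.6e-04), −0.89 (adjusted p = 6.3e-04) and −1.27 (adjusted p = 2.5e-04). In PEC against HN these 3 lay between 0.05 and 0.32 and none was called. Acaa1a was called lower in PEC against Control without Control 5, at −0.59 (adjusted p = 8.1e-04).

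The CYP4 hydroxylases differed widely between single mice. All 3 fell in HN against Control, beside 17.2% of all genes tested. In PEC against HN 2 rose, beside 16.6%, and in PEC against Control 2 were lower, beside 20.0%. With total counts as the scale these were 3, 2 and 1, beside 7.41%, 11% and 11.3%. Cyp4a14, a classic PPAR-alpha target, read 579, 85.6 and 40.4 in Control mice, 14.0, 16.6 and 14.3 in HN mice and 19.1, 44.4 and 75.0 in PEC. Control 2 was many times above the other Control mice, and PEC 2 and PEC 3 reached the level of Control 5. With all libraries it had the largest fall of all members in HN, −3.95 (SE 0.98, adjusted p = 0.00888), which was −2.05 without Control 2 (adjusted p = 0.0142). That rank rests on Control 2, since the fall of Acsm3 was never smaller than −3.15 with 1 library left out. PEC against HN was 1.64 (SE 0.89, adjusted p = 0.156), not called, and was called without Control 2 (adjusted p = 0.0240). PEC against Control, −2.31 (adjusted p = 0.0566), was called without Control 4, at −2.71 (adjusted p = 0.0423), or Control 5, at −2.81 (adjusted p = 0.0176). Over all runs with 1 library left out, that value came as near to 0 as −0.41, and its adjusted p reached 0.539.

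Cyp4a10, its neighbour and also a PPAR-alpha target, had 622, 231 and 152 in Control mice, 30.9, 32.5 and 21.3 in HN mice and 79.7, 125 and 165 in PEC. All PEC mice were above all HN mice, and PEC 3 was above Control 5. Cyp4a10 fell in HN by −3.55 (SE 0.54, adjusted p = 6.3e-04) and had the largest rise of all members in PEC against HN, 2.15 (SE 0.51, adjusted p = 0.00779). PEC against Control was −1.40 (SE 0.50, adjusted p = 0.0383), and −0.59 without Control 2 (adjusted p = 0.16). That call was also lost without HN 4, HN 8, PEC 1 or PEC 2, with adjusted p from 0.0527 to 0.110. Cyp4b1, which hydroxylates fatty acids and foreign compounds and is the most abundant member of all 40, read 1003, 945 and 1260 in Control mice, 187, 221 and 219 in HN mice and 558, 667 and 281 in PEC. PEC 3 was nearer the HN mice than PEC 1 and PEC 2 were. Cyp4b1 fell in HN by −2.33 (SE 0.29, adjusted p = 1.8e-04) and rose in PEC against HN by 1.28 (SE 0.28, adjusted p = 0.00513).

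Pdk4, a PPAR-alpha target that shuts pyruvate out of the mitochondrial cycle when fat is burned, was called in no comparison. It read 32.5, 12.2 and 10.4 in Control mice, 12.8, 5.79 and 4.29 in HN mice and 3.89, 9.43 and 19.2 in PEC. All groups overlapped, and Control 2, HN 4 and PEC 3 were the high mice of their groups. HN against Control was −1.25 (SE 0.67, adjusted p = 0.154). With 1 library left out it ran from −1.84 to −0.55, with adjusted p up to 0.536. PEC against HN was 0.53 (SE 0.66, adjusted p = 0.531), and turned to −0.17 without PEC 3.

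**Figure D3:**
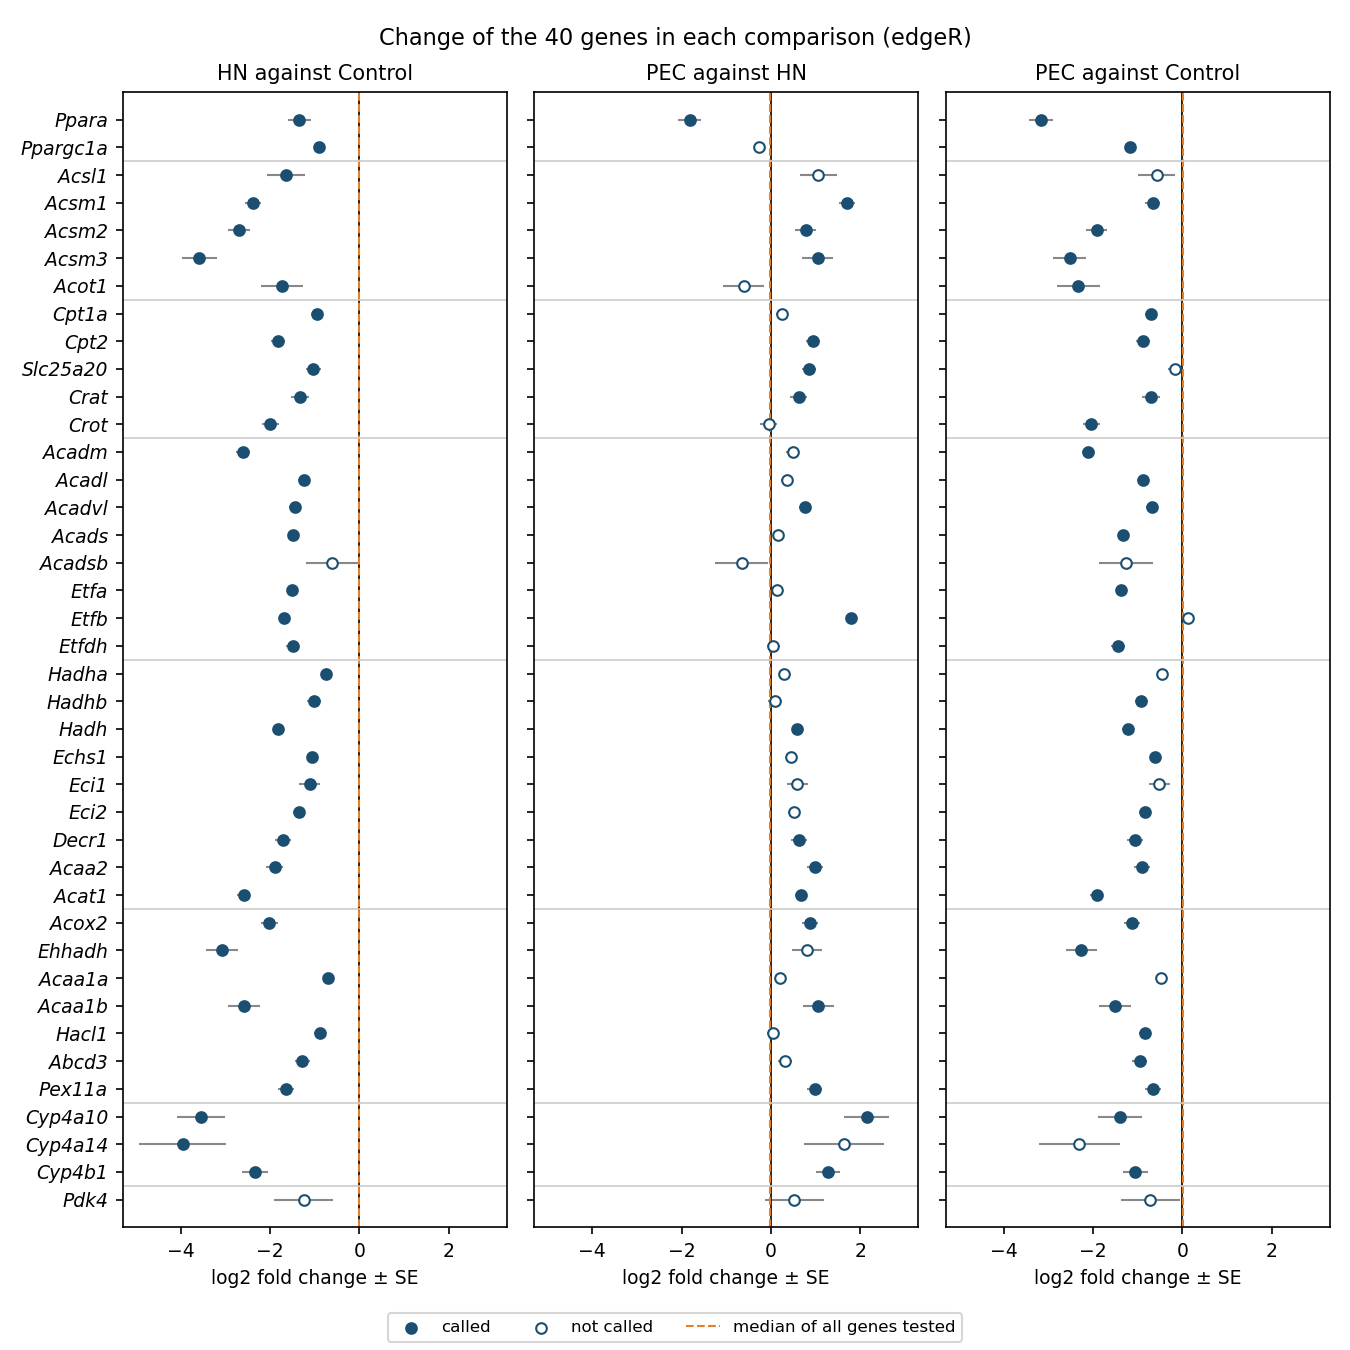
Log2 fold change of each member (rows, by role) with its standard error in the 3 comparisons (panels), edgeR with TMM scaling, 3 mice per group, filled where called, with a dashed line at the median of all genes tested. In HN against Control all 40 points lie below 0, from −3.95 for Cyp4a14 to −0.60 for Acadsb, and scaling by total counts leaves them between −3.45 and −0.09.

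Some members cannot be told apart from close copies or overlapping genes with full certainty, since the strand and the handling of shared reads in counting were not stated. Cyp4a10 and Cyp4a14 lie in a cluster on chromosome 4 with Cyp4a31, Cyp4a32, Cyp4a12a and Cyp4a12b, and reads may have been shared among them. Acsm1, Acsm2 and Acsm3 lie together on chromosome 7, beside Acsm5. Acot1 lies beside Acot2, Acot3 and Acot4 on chromosome 12, Acaa1a and Acaa1b are near each other on chromosome 9, and Eci2 lies beside Eci3 on chromosome 13. Acot2, the mitochondrial neighbour of Acot1, read 29.1, 12.6 and 11.9 in Control mice, 6.46, 7.66 and 6.46 in HN mice and 13.7, 14.0 and 14.2 in PEC, and rose in PEC against HN by 1.05 (adjusted p = 0.0218), where Acot1 was −0.61 (adjusted p = 0.299). That rise was lost without HN 4, at 1.00 (adjusted p = 0.0678), or HN 12, at 1.01 (adjusted p = 0.0639). It was also lost scaled by total counts (adjusted p = 0.0568) and with the trend with length and GC content removed (adjusted p = 0.0724). Of the 40 members, 14 overlap another gene with a mean over 0.5 FPKM, among them Etfb, Hacl1, Acaa1a, Acaa1b, Acsm1, Acsm3, Echs1, Crat and Acadvl. Hadha and Hadhb lie head to head on opposite strands of chromosome 5.

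The libraries also differed in how values depend on transcript length. Set against the mean over the 9 libraries, log2 CPM (scaled counts) went down with length in PEC 1, 2 and 3, with Spearman's rho −0.325, −0.271 and −0.305, and up in each Control and HN library, with rho from 0.0751 to 0.246. Across the 40 members, the log2 fold change of PEC against HN went down with length, with rho −0.415, and across 15497 tested genes rho was −0.368. In HN against Control rho was 0.359 over members and 0.084 over all genes. For GC content in PEC against HN rho was 0.289 over members and 0.210 over all genes. These are correlations across genes, which are not independent replicates and share the same libraries. With both trends removed, 38 members were lower in HN against Control, beside 22% of all genes. In PEC against HN 16 rose and 1 fell, beside 15.2% and 12.5% of all genes. In PEC against Control 33 were lower, beside 20.8%. Acadvl at 0.47, Hadh at 0.56 and Acaa1b at 0.86 (adjusted p = 0.0626) were then no longer called in PEC against HN, while Acsl1 at 1.54 and Hadhb at 0.68 were.

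**Figure D4:**
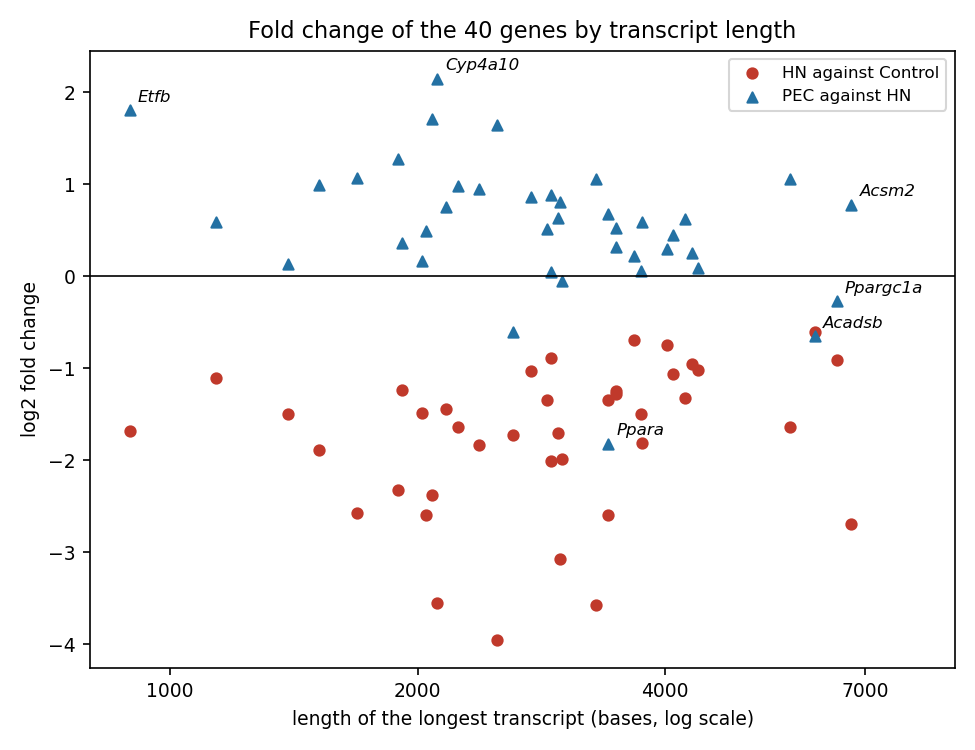
Log2 fold change of the 40 members (vertical axis) against the length of the longest transcript in bases (horizontal log axis), with circles for HN against Control and triangles for PEC against HN. In PEC against HN, Etfb, the shortest at 893 bases, is at 1.80, and the longest, Acsm2 and Ppargc1a, are at 0.78 and −0.27.

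The same direction ran through most of the further lists. Of 100 tested genes on 8 further lists (12 more were under the filter), 67 fell and 5 rose in HN against Control, 39 rose and 7 fell in PEC against HN, and 5 were higher and 57 lower in PEC against Control. With total counts as the scale 49 were lower and 12 higher, 30 higher and 11 lower, and 9 higher and 36 lower. Of all genes tested, 17.2%, 17.7% and 20.0% were lower and 18.7%, 16.6% and 21.4% higher in these comparisons under TMM, and 7.41%, 26.2% and 11.3% lower and 39.7%, 11% and 32.6% higher with total counts as the scale. Their medians were −1.16, 0.42 and −0.76, beside −1.56, 0.59 and −1.005 in the 40 members. The genes that the deposited table pairs with the KEGG term for fatty acid degradation, members left out, had 16 of 22 lower and 5 higher in HN against Control, and 14 higher and 2 lower in PEC against HN, or 12, 5, 12 and 4 with total counts as the scale. Those of the peroxisome term had 43 of 61 lower and 4 higher, and 25 higher and 2 lower, or 27, 7, 17 and 5. Those of PPAR signaling had 23 of 52 lower and 7 higher (44.2% and 13.5%), and 19 higher and 8 lower (36.5% and 15.4%), or 15, 9, 14 and 9, with a median of −0.48 in HN against Control that turned to 0.04 with total counts as the scale.

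Receptors and cofactors that work with PPAR-alpha were mostly not called in PEC against HN and, under TMM, mostly lower than in Control. Of 20 tested, 8 fell and 0 rose in HN against Control. Of the same 20, 1 rose and 5 (Ppard, Rxrb, Esrrg, Nrip1 and Prkaa1) fell in PEC against HN, or 5% called higher beside 16.6% of all genes tested and 25% called lower beside 17.7%. With total counts as the scale 0 were higher and 8 lower there, or 40% beside 26.2%. With the trend with length and GC content removed 2 (Sirt3 and Med1) were higher and 1 (Ppard) lower. These were 10% beside 15.2% of all genes and 5% beside 12.5%. In PEC against Control 0 were higher and 13 lower, or 65% beside 20.0% of all genes, and 1 higher and 8 lower with total counts as the scale. With the trend removed 10 were lower there, or 50% beside 20.8% of all genes. The median in HN against Control, −0.31, turned to 0.21 with total counts as the scale, where 4 were called higher and 3 lower. Rxra, the partner receptor of PPAR-alpha, read 29.2, 27.4 and 28.7 in Control mice, 14.4, 14.5 and 14.6 in HN mice and 13.7, 16.1 and 13.5 in PEC. HN and PEC mice overlapped, both at about the same distance below Control. It fell by −0.95 (adjusted p = 1.6e-05) and was not called in PEC against HN. Esrra, a nuclear receptor of mitochondrial genes, fell by −0.97 (adjusted p = 4.6e-04), and Lpin1, a coactivator and lipid phosphatase, by −1.28 (adjusted p = 2.1e-04). Sirt3, the mitochondrial deacetylase, fell by −1.59 (adjusted p = 2.2e-06) and was the 1 that rose in PEC against HN, by 0.69 (adjusted p = 1.8e-04). Scaled by total counts, the falls of Rxra, at −0.429, and Esrra, at −0.452, and the rise of Sirt3, at 0.468, were under the fold asked.

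Supply of carnitine and control by malonyl-CoA showed 4 of 7 tested genes lower and 1 higher in HN against Control, and 4 higher and 0 lower in PEC against HN. Aldh9a1, an enzyme of carnitine synthesis, fell by −2.06 (adjusted p = 7.0e-06) and rose by 0.92 (adjusted p = 5.9e-04). Slc22a5, the carnitine uptake carrier, fell by −1.72 (adjusted p = 2.8e-06) and rose by 0.68 (adjusted p = 3.7e-04). The 1 gene called higher in HN was Cpt1c, a form known from neurons. It read 0.0717, 0.0707 and 0.127 normalised FPKM in Control and 0.802, 0.893 and 0.961 in HN. Under 0.5 FPKM in each Control mouse, Cpt1c passed the filter only through the induced mice. Its call is therefore tied to the filter, and its fold, which starts near 0, is not given. Oxct1, which uses ketone bodies, fell by −1.86 (adjusted p = 0.00679), and Acat2, a thiolase of the cytosol, by −0.96 (adjusted p = 0.00819). Scaled by total counts, the fall of Acat2, at −0.441, and the rise of Slc22a5, at 0.459, were no longer called, and with the trend with length and GC content removed Slc22a5 was 0.582, just under the fold asked.

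Among other peroxisomal genes 15 of 18 fell in HN against Control and 0 rose, and 8 rose and 0 fell in PEC against HN, or 9, 1, 5 and 0 with total counts as the scale. Cat, catalase, fell by −1.67 (adjusted p = 1.7e-05) and rose by 0.96 (adjusted p = 4.9e-04). Phyh, which starts the breakdown of phytanic acid, fell by −1.78 (adjusted p = 4.0e-06) and rose by 1.13 (adjusted p = 7.4e-05). Amacr, a racemase for branched chains, and Pecr, a reductase, fell by −2.41 (adjusted p = 1.8e-05) and −2.30 (adjusted p = 1.5e-05). Further synthetases and thioesterases had 10 of 17 lower and 2 (Acsl4 and Acsl5) higher in HN against Control, or 11 lower and 0 higher with the trend with length and GC content removed, and 7 higher and 2 lower in PEC against HN. Slc27a2, which takes up and activates very long chains, read 1012, 1002 and 999 in Control mice, 260, 257 and 268 in HN mice and 584, 711 and 516 in PEC. The 3 groups stood apart, with PEC in between. Acot13 fell by −1.25 (adjusted p = 1.1e-05), Acot12 by −2.49 (adjusted p = 2.2e-04) and Acsm5 by −2.26 (adjusted p = 2.8e-06).

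Further acyl-CoA dehydrogenases, together with genes of propionyl-CoA breakdown, fell at all 10 tested in HN against Control, and 4 rose in PEC against HN. Gcdh, for lysine breakdown, fell by −1.96 (adjusted p = 1.5e-06) and rose by 1.27 (adjusted p = 2.1e-05). Ivd, for leucine, fell by −1.92 (adjusted p = 5.3e-05), and Pccb, for propionyl-CoA, by −1.31 (adjusted p = 4.1e-05). Other CYP4 genes had 5 of 7 lower and 2 higher in HN against Control, and 5 higher and 0 lower in PEC against HN, or 3, 2, 5 and 0 with total counts as the scale. Cyp4a31 fell by −2.68 (adjusted p = 4.9e-05) and rose by 1.91 (adjusted p = 4.3e-04), Cyp4a12a fell by −3.09 (adjusted p = 4.8e-04) and Cyp4a32 by −3.27 (adjusted p = 5.4e-04). Cyp4f18, known from leukocytes, rose in HN by 3.43 (adjusted p = 6.3e-05). Further PPAR-alpha targets had 10 of 15 lower and 0 higher in HN against Control, and 7 higher and 0 lower in PEC against HN, or 8, 2, 7 and 0 with total counts as the scale. Gpd1, of glycerol metabolism, fell by −1.73 (adjusted p = 8.0e-05) and Fabp3, a fatty acid carrier, by −1.46 (adjusted p = 1.6e-04). Fabp3 read 79.5, 89.7 and 111 in PEC, in the range of Control. Retsat, a retinol saturase, fell by −2.55 (adjusted p = 4.4e-05) and Vnn1, a pantetheinase, by −2.29 (adjusted p = 1.3e-04).

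Markers of the cells that hold most of this pathway moved with it. In bulk kidney, fewer proximal tubule cells and less RNA per cell cannot be told apart. Of 10 proximal tubule markers, 9 fell in HN against Control and 9 rose in PEC against HN, or 9 and 7 with total counts as the scale. Slc5a12 was called in neither under TMM, with −1.06 (adjusted p = 0.0738) in PEC against HN, and was called lower there with total counts as the scale, at −1.29 (adjusted p = 0.0330). Their summed normalised FPKM was 2860, 2970 and 3068 in Control mice, 777, 735 and 755 in HN mice and 1602, 1918 and 1390 in PEC, with Slc27a2, also a gene of the pathway, as the most abundant and none near 0. Of 6 injured tubule markers 6 rose in HN against Control and 2 fell in PEC against HN, or 3 with total counts as the scale and 1 with the trend with length and GC content removed. Their sums were 471, 512 and 455 in Control mice, 10401, 9056 and 9051 in HN mice and 7963, 8342 and 6692 in PEC, most of it Spp1. Their part in the members' differences was not tested.

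Macrophage markers rose at 6 of 6 in HN and fell at 5 of 6 in PEC against HN (4 of 6 with the trend with length and GC content removed), with sums of 58.5, 65.3 and 60.4 in Control mice, 970, 991 and 841 in HN mice and 385, 413 and 531 in PEC and Lyz2 as the most abundant. Fibroblast markers rose at 6 of 6 and fell at 5 of 6 (3 of 6 with the trend with length and GC content removed), with sums of 36.3, 35.4 and 31.5, 254, 266 and 236 and 125, 139 and 115, Col3a1 leading. In the thick ascending limb, 1 of 4 markers was higher and 2 lower in HN against Control, and 0 were called in PEC against HN, with sums of 1312, 1476 and 1424, 1370, 1182 and 1290 and 1298, 1355 and 1226, most of it Umod, and a median of −0.40 that turned to 0.12 with total counts as the scale. In the distal convoluted tubule, led by Slc12a3, 2 of 3 fell and 1 rose in HN against Control, and 2 rose in PEC against HN, with sums of 71.8, 67.1 and 93.2, 40.6, 39.8 and 42.7 and 66.7, 87.0 and 64.2. In the collecting duct, led by Aqp2, 3 of 6 fell in HN against Control and 4 rose in PEC against HN, with sums of 394, 437 and 224, 167, 113 and 157 and 200, 196 and 258. Podocyte markers, led by Podxl, were called at 0 of 4 in each comparison by edgeR with TMM, and 2 were higher in HN against Control with total counts as the scale, with sums of 66.4, 64.4 and 68.5, 69.2, 61.2 and 57.9 and 74.5, 73.8 and 65.5. Endothelial markers, led by Emcn, had 1 of 5 lower in HN against Control with TMM and 1 higher with total counts as the scale, and in PEC against HN 1 higher and then 1 lower, with sums of 44.8, 48.8 and 51.3, 42.0, 44.6 and 41.9 and 39.5, 43.8 and 55.9. The part of these cells in the members' differences was not tested.

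**Figure D5:**
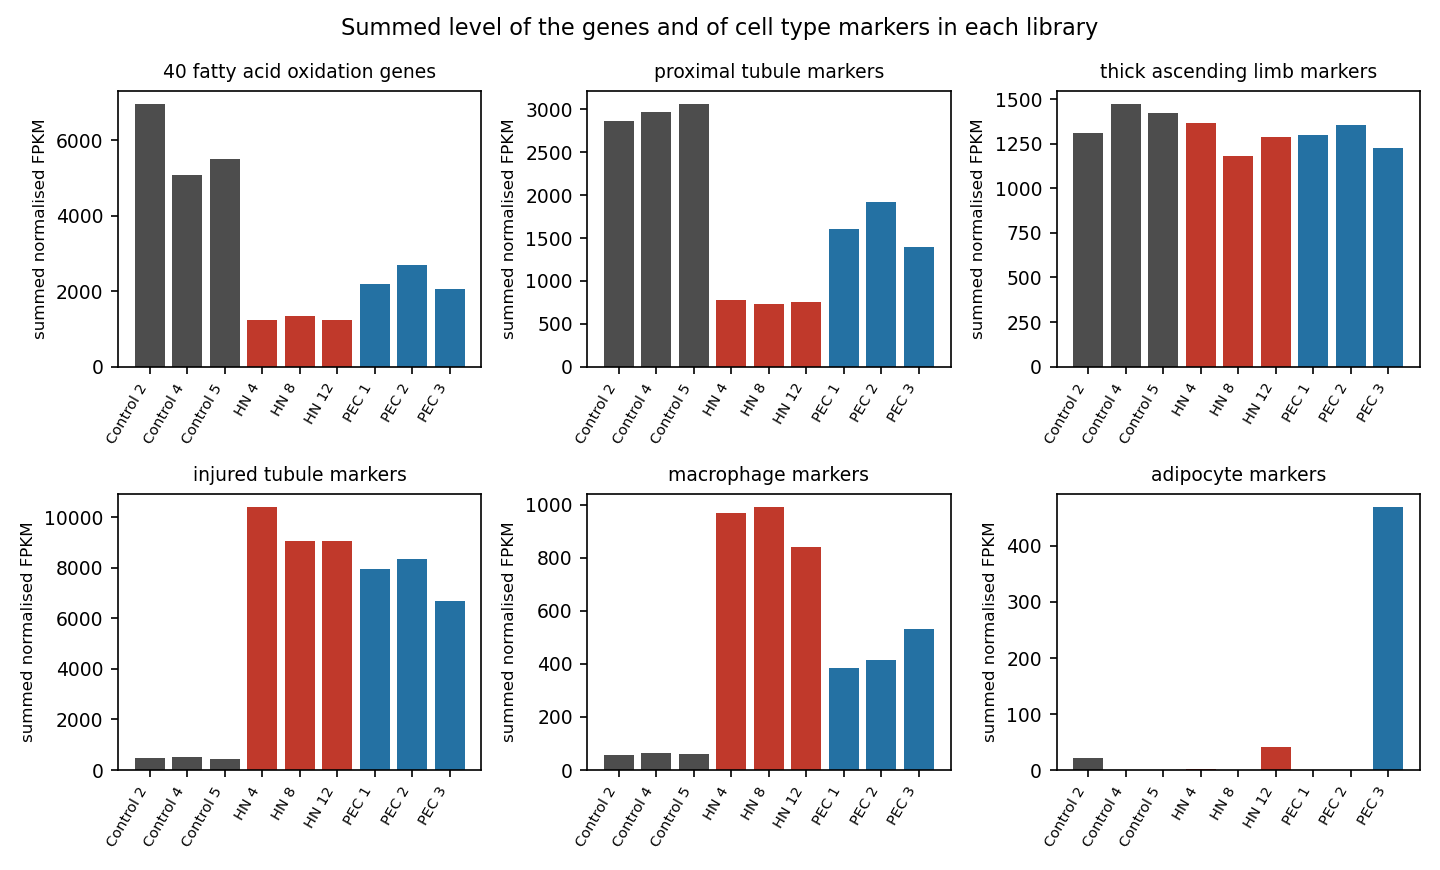
Summed normalised FPKM (vertical axes, from 0, each panel on its own scale) of the 40 members and of 5 marker lists in each of the 9 libraries, grey for Control, red for HN and blue for PEC. Members and proximal tubule markers are lowest in HN and intermediate in PEC, while adipocyte markers stand out in PEC 3, at 469.

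Adipocyte markers, of cells that also burn and store fat, were high in 1 library of each group. Their sums were 21.6, 0.342 and 0.127 in Control mice, 1.19, 0.388 and 41.9 in HN mice and 0.264, 0.650 and 469 in PEC, led by Cfd, and 0 of 5 tested were called by edgeR. With the richest library of each group left out together (Control 2, HN 12 and PEC 3), 36 members were lower in HN against Control, 16 were higher and 2 lower in PEC against HN, and 26 were lower in PEC against Control. Of all 15508 genes, 2487 were then lower in HN against Control and 2694 in PEC against Control. In PEC against HN 2343 of all genes were higher and 2529 lower. Medians of the members were then −1.38, 0.59 and −0.82. Hepatocyte markers had 3 of 6 lower in HN against Control and 5 higher in PEC against HN, with sums of 840, 685 and 790, 222, 237 and 243 and 546, 816 and 508, most of it Cyp2e1, which the kidney also makes, while Alb was at most 5.29 in any mouse. Skeletal muscle markers summed to at most 0.734, with Acta1 leading and Ckm and Myh4 at or near 0.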

How the data were processed

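The authors deposited 1 table with a raw read count and an FPKM per gene and library. Its coordinates match GRCm38 (51954 of the 55144 genes found in GENCODE mouse release M21 are identical, and 36 of the 40 members), while the submitters' notes name Bowtie 0.12.2 with mm8 and mm9. Members were matched by gene symbol. The members, the other lists and the markers were chosen with earlier results of these data known. Other pathway genes came from the table's KEGG columns and from lists by role.

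Tests were run in R 4.3.3 with edgeR 4.0.16 (glmQLFit and glmQLFTest, TMM), in 1 fit over the 9 libraries and over the 15508 genes with a mean of at least 0.5 FPKM. Normalised FPKM is the deposited FPKM divided by the TMM factor, which here includes the share of counts that passed the filter. With 3 mice a group an exact permutation test of a single gene cannot go below 0.10, so tests that share the spread between genes were used. Standard errors were worked back from edgeR's test, as the absolute log2 fold change divided by the square root of its quasi-likelihood F statistic.

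Alternatives were DESeq2 1.42.0, limma 3.58.1 on log2(FPKM + 1) and log2(FPKM + 0.1), scaling by total counts, no filter, edgeR's filterByExpr, a fit of only the groups compared, removal of the trend with transcript length and GC content (spline of 5 degrees of freedom), an unadjusted p, a fold of at least 2, and each library left out.

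Named with the value in every mouse are Ppara, Ppargc1a, Cpt1a, Acadm, Ehhadh, Cyp4a10, Cyp4a14 and Pdk4, the 5 largest falls and rises among called members in HN against Control and PEC against HN, and the member with the highest mean FPKM of each role. Acadsb and Etfa were added to these after their values were seen, as were Acsl4, Acsl5, Ppard, Rxrb, Esrrg, Nrip1, Prkaa1, Med1 and Slc5a12. Of each other list, the 2 genes with the highest mean FPKM and the 2 with the largest called change in HN against Control are named unless left out of the text, and of each marker list the most abundant gene. Figures were drawn with matplotlib 3.10.9.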

Additional observations from a re-analysis of the deposited data

How the results depend on the processing

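Directions held in most settings, and counts and medians of the members moved with the scale and with single libraries. No paired analysis was possible, because each library came from a different mouse and nothing in the labels pairs mice between groups. With 3 mice a group and counts of at least 402 per member and mouse, the spread between mice and not depth limits the values. Leaving out the library richest in adipocyte markers of each group together was chosen after seeing the data.

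In HN against Control, 37 to 38 members were lower and 0 higher with 1 library left out, beside 2468 to 2723 and 2687 to 2946 of all 15508 genes. The median of the members ran from −1.66 to −1.42. The median, −1.56 with all libraries, was −1.05 scaled by total counts, −0.97 with limma on log2(FPKM + 1), −1.01 on log2(FPKM + 0.1) and −1.38 with the 3 libraries left out together. In PEC against HN, 10 to 21 members were higher and 1 to 2 lower with 1 library left out, beside 2282 to 2609 and 2455 to 2778 of all genes. The median of the members ran from 0.49 to 0.65. Members higher were 9 scaled by total counts, 7 with limma on log2(FPKM + 1), 9 on log2(FPKM + 0.1) and 6 at a fold of at least 2, and members lower were 2 with the 3 libraries left out. Of all 15508 genes, 1712, 1356, 1683 and 1425 were higher in these settings in turn, and 2529 were lower with the 3 libraries left out. Medians of the members were 0.37, 0.34 and 0.35 in the first 3 of these settings. In PEC against Control, 27 to 34 members were lower with 1 library left out, beside 2851 to 3153 of all genes. The median of the members ran from −1.09 to −0.78. Members lower were 18 at a fold of at least 2, where 1575 of all genes were lower. Medians were −0.70 scaled by total counts, −0.73 and −0.75 with limma, and −0.82 with the 3 libraries left out. The scale change itself moves all genes together, by its construction, and the stricter fold lowers a count by its construction. For the rest the cause was not tested.

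Single values that changed sign were all uncalled with TMM. In PEC against HN they were, scaled by total counts and with limma at both pseudocounts, Hacl1 (−0.17, −0.17 and −0.20), Etfdh (−0.17, −0.18 and −0.20), Acads (−0.053, −0.075 and −0.077), Etfa (−0.089, −0.107 and −0.108), Acaa1a (−0.001, −0.022 and −0.023) and Hadhb (−0.12, −0.13 and −0.14). In PEC against Control Slc25a20 was 0.13, 0.10 and 0.11 in these settings. With the trend with length and GC content removed, Crot was 0.107, Hacl1 −0.016 and Ppargc1a 0.42 in PEC against HN, and Etfb −0.46 in PEC against Control. With 1 library left out, PEC against HN ran from −0.256 to 0.071 for Crot (above 0 without HN 8, PEC 1 or PEC 3), from −0.171 without PEC 3 to 1.12 for Pdk4, and, with the lowest value without PEC 2, from −0.094 to 0.141 for Hacl1 and from −0.116 to 0.163 for Etfdh. PEC against Control ran from −0.313 to 0.033, without Control 2, for Slc25a20. With the 3 libraries left out together Crot was 0.044, Pdk4 −0.455 and Hadhb −0.033. The cause was not tested.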
